A study of Mus musculus with 19 samples.

Results

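RNA bound to the ribosomes of cortical astrocytes was compared between mice in estrus and mice in metestrus. The comparison used the 12 libraries labelled with these stages, 4 in estrus and 8 in metestrus, of 19 libraries in the series, and the choice rested on the treatment label alone. The other libraries came from 3 proestrus samples and 4 male samples and were also in the fit, where the proestrus libraries of batches 2 and 3 helped to set the batch terms and both groups added to the estimate of spread. All mice were of the JD130Htz line on a B6;FVB background and carried the Aldh1l1-EGFP/Rpl10a transgene, in which the ribosomal protein L10a fused to the fluorescent protein EGFP is driven by the Aldh1l1 promoter. The females were collected at 09:00, no source used here states their age, and no label says whether a library came from 1 animal or from a pool. The labelled tissue is brain and the series title speaks of cortex. Sample titles carry CTX in batches 2 and 3 and not in batch 4. The stages were spread over 3 labelled batches. Batch 2 held 3 estrus and 2 metestrus libraries, batch 3 held 1 of each, and batch 4 held 5 metestrus libraries and no estrus library. With batch in the fit, the size of each difference therefore came from batches 2 and 3, through the estrus and metestrus libraries and, by way of the batch terms, those of proestrus. Batch 4 added to the estimate of spread. Since no label calls the libraries separate animals, p-values measure the spread between libraries, which may be technical.

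In translating ribosome affinity purification (TRAP) the tagged ribosomes of one cell type are pulled down from a tissue homogenate with beads that carry an antibody to the tag, and the RNA that comes with them is sequenced. RNAs that are being translated are enriched in this way, whereas many long noncoding RNAs act in the nucleus and are not translated. Estrus follows ovulation, and metestrus is the stage after it. Ovarian estradiol peaks in proestrus, and astrocytes, which clear glutamate and potassium, supply lactate and contact synapses and vessels, carry receptors for estradiol and progesterone.

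The deposited values are log2 values. A difference of 1 is a 2-fold change, and a difference is always estrus minus metestrus here. Of 21749 genes, 20644 reached a value of 10 before the log in at least 3 libraries and were tested. The median correlation with the other libraries of the group was 0.917 to 0.922 in estrus and 0.948 to 0.969 in metestrus. Genes with a value below 0 numbered 658 to 1024 in the estrus libraries, 59 to 476 in the metestrus libraries and 487 to 1010 in the proestrus libraries. This count of very low values was thus higher in each estrus library than in any metestrus library, and its part in the differences of scarce genes was not tested. All 22 measured astrocyte markers lay at a mean log2 value of at least 7, among them Gfap, the intermediate filament of astrocytes, at 14.39 to 15.42 in estrus and 14.63 to 15.33 in metestrus. The neuron markers were also present, with 16 of 18 above that line. Aldh1l1, whose promoter drives the tag, differed by 0.00 ± 0.21 (SE, n = 4 and 8). Rpl10a, the gene of the tagged protein, differed by -0.46 ± 0.18 with an adjusted p of 0.346 (limma, Benjamini-Hochberg).

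Few genes separated the stages. In limma, 18 of the 20644 genes (0.0872%) passed an adjusted p of 0.05, 4 higher (0.0194%) and 14 lower (0.0678%) in estrus. With 10 added to the values before the log, which damps values near the floor, 14 passed, 13 higher and 1 lower, and 5 of these were among the 18. At an unadjusted p of 0.05 there were 2337 genes (11.3%), 855 of them (4.14%) higher and 1482 (7.18%) lower. Estrus and metestrus libraries did not overlap within batches 2 and 3 for 469 genes (2.27%) higher and 1057 (5.12%) lower in estrus, and over all 12 libraries for 210 (1.02%) higher and 477 (2.31%) lower. Over all tested genes the median difference was -0.07, and 56.5% of the differences were negative. The deposited values lack 4 directions of variation between libraries, and no source used here states how these were removed. When these were counted in the fit, the differences stayed the same by construction, no gene passed, the lowest adjusted p was 0.0901, and 1715 genes had an unadjusted p under 0.05. The count of 18 depended on single libraries. It was 0 without estrus library 2 or without metestrus library 1, 44 without estrus library 4 and 56 without metestrus library 3. It was 5 to 10 without any one of metestrus libraries 4 to 8.

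Abundant genes, those with a mean log2 value of at least 7 over the 12 libraries, had the smaller differences. They numbered 11366, their median absolute difference was 0.20 against a median SE of 0.24, and 1 of them (0.0088%), Lrrc8c, passed the threshold. The 9278 scarce genes had a median absolute difference of 0.67 against a median SE of 0.83, and 17 of them (0.183%) passed, 4 higher (0.0431%) and 13 lower (0.14%). Just inside the line stood Tmem169 at 7.0001 and Abcc1 at 7.0002, and just outside it Aldh1b1 at 6.9967 and M5C1000I18Rik at 6.9988. A difference of at least 2 on the log2 scale was seen in 11 abundant genes, 4 higher and 7 lower, and 5 of those 7 were nuclear-retained RNAs. The other 2 were Gm15725, at -3.73 ± 1.56, and Gm14419, at -2.45 ± 1.02, with adjusted p of 0.395 and 0.385 in limma. The 4 higher ones were Gm20458, Raver1, Zfp965 and Rem2, named after their values were seen. For Raver1, an RNA-binding protein gene, the 3 metestrus libraries of batches 2 and 3 read 2.07, 10.19 and 10.21. Its difference was 3.21 ± 1.36, with 4.6 in batch 2, where the lowest of these values lay, and 0.10 in batch 3.

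**Figure D1:**
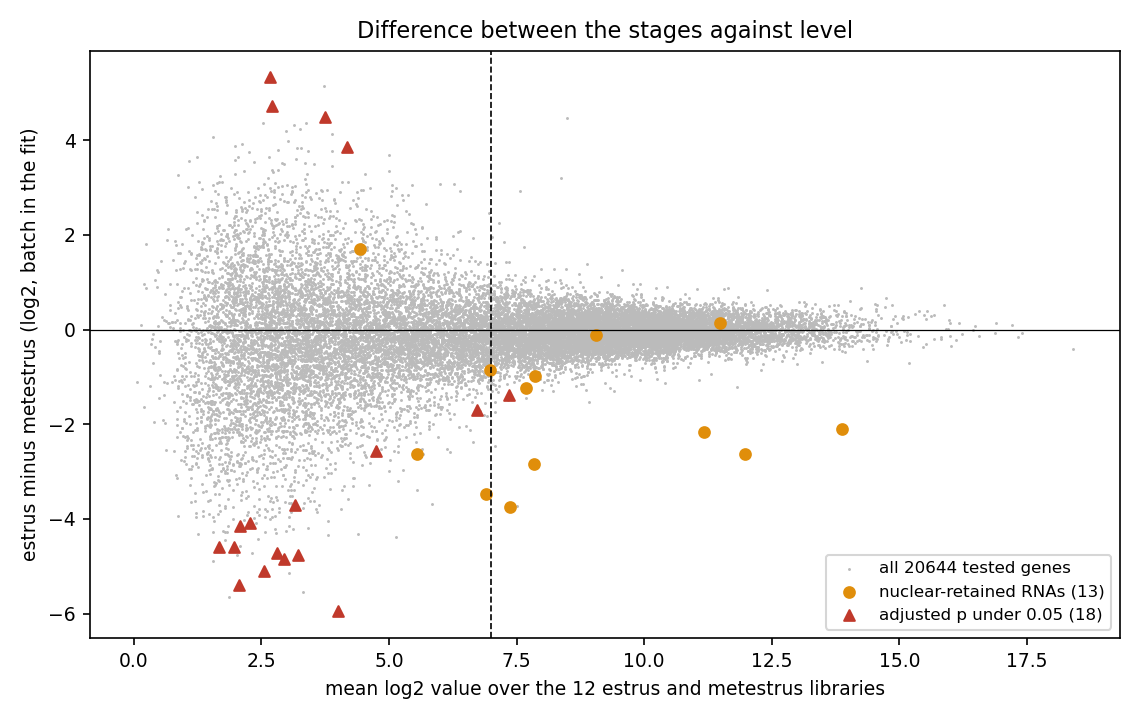
Estrus minus metestrus difference (log2, vertical axis) against the mean log2 value over the 12 libraries (horizontal axis), 1 grey point per tested gene. The dashed line at 7 divides scarce from abundant genes. Red triangles are the 18 genes past the threshold and orange points the 13 nuclear-retained RNAs, most of which lie below the cloud of abundant genes.

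Lrrc8c encodes a subunit of the volume-regulated anion channel, through which cells release chloride and osmolytes when they swell. Its level was 6.48, 6.39, 6.17 and 6.62 in the 4 estrus libraries and 7.64 to 8.06 in the 8 metestrus libraries, with a median of 7.77. The groups did not overlap, with a gap of about 1 log2 unit between them. Lrrc8c fell by 1.39 ± 0.25 on the log2 scale in estrus (SE, n = 4 and 8, 2.62-fold, adjusted p = 0.031 in limma). The difference was -1.37 within batch 2 and -1.38 within batch 3. With the removed directions counted the adjusted p was 0.178. Lrrc8c also missed the threshold when abundant genes alone were tested, where the lowest adjusted p was 0.174 (limma). In batches 2 and 3 alone no gene passed. Of 10 alternative fits beside those that left out 1 library, 5 kept the call. Of the 12 fits that each left out 1 library, 6 kept the call, with differences of -1.49 to -1.28. Its 3 measured partner subunits did not pass. Lrrc8a, the obligatory subunit, differed by -0.12 ± 0.21, Lrrc8b by -0.23 ± 0.25 and Lrrc8d by 0.42 ± 0.30. Against proestrus, where Lrrc8c read 7.67, 7.38 and 7.05, the same estrus libraries differed by -0.95 ± 0.25 (adjusted p = 0.0606, limma).

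Amigo2, a cell adhesion gene often listed among markers of neurotoxic reactive astrocytes, lay just under the line for abundant genes. It read 6.58, 5.55, 5.29 and 5.07 in estrus and 6.86 to 7.88 in metestrus, with a median of 7.28, and the groups did not overlap. Amigo2 fell by 1.69 ± 0.33 on the log2 scale (adjusted p = 0.0468 in limma, 0.179 with the removed directions counted). Leaving out single libraries kept this call in 1 of 12 fits, that without estrus library 1. The other reactive genes of its set went mostly the other way. Of 11 measured A1-type genes, 8 had positive differences, the median was 0.24, and Amigo2 alone passed. Gbp2, an interferon-induced GTPase, differed by 1.63 ± 0.73 (adjusted p = 0.408, limma).

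The sequences before the start sites of Lrrc8c and Amigo2, which fell, and of Kcnq1ot1, the nuclear-retained RNA with the largest difference, are shown to set out what their promoters hold. Each is the 250 bases upstream of the RefSeq start (build GRCm38.p6, 5′ to 3′ on the gene's strand). Capitals mark matches to any of 4 motifs, each searched on both strands. The GC box was searched as GGGCGG, the CCAAT box by the letters of its name and the TATA box as TATAAA. The palindromic estrogen response element was searched as GGTCA, 3 bases of any kind and the reverse complement of GGTCA. No match overlapped a match of another motif in these windows. The window of Lrrc8c is chr5:105519221-105519470 (+ strand), that of Amigo2 chr15:97247288-97247537 (- strand) and that of Kcnq1ot1 chr7:143296548-143296797 (- strand).
Lrrc8c: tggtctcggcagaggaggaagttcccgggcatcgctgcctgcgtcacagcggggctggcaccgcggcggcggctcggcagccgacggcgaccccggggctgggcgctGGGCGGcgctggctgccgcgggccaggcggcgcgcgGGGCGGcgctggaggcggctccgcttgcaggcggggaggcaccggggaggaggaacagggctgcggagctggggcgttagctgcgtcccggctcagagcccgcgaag
Amigo2: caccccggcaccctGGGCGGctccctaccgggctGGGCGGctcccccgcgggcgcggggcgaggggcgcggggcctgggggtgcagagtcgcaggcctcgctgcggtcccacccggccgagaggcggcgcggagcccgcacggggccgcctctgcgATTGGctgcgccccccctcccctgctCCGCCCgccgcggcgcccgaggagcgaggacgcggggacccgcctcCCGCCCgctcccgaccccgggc
Kcnq1ot1: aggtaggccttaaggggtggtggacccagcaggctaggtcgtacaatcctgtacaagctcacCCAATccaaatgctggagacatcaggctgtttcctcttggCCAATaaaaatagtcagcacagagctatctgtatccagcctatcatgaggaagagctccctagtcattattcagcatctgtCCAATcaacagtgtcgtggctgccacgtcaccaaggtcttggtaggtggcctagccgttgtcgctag
The Lrrc8c window held 2 GC boxes and 78.4% G and C. The Amigo2 window held 4 GC boxes and 1 CCAAT box, with 84% G and C. The Kcnq1ot1 window held 3 CCAAT boxes, which bind the factor NF-Y, and no GC box, with 51.2% G and C. Among 32851 such windows in the RefSeq table, 32.7% held a GC box, 33.8% a CCAAT box, 12.4% a TATA box and 0.0639% the palindromic estrogen response element. Of the 18 genes past the threshold, 6 matched the table by symbol. A GC box stood in 4 of their 6 windows, and none held the estrogen response element, which says only that these letters are not in these windows.

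Some abundant genes did not overlap between the stages within batches 2 and 3 and yet missed the threshold. Over abundant genes, 253 (2.23%) were higher and 516 (4.54%) lower in each estrus library than in any metestrus library of these batches. Over all tested genes the shares were 2.27% and 5.12%. With so few libraries some genes do so by chance, and these shares were not tested against it. Those named here are the 10 of smallest p in each direction, among them Lrrc8c and the nuclear Kcnq1ot1. Lhfpl3, a tetraspan membrane gene of oligodendrocyte precursors, read 6.01, 5.82, 5.75 and 6.07 in estrus and 7.36 to 7.85 in metestrus, with a median of 7.70, without overlap. Its difference was -1.74 ± 0.35 (adjusted p = 0.0533, limma), and in proestrus it read 6.37, 6.87 and 5.46, on both sides of the estrus values. Vegfa, the vascular endothelial growth factor that astrocytes release to vessels, read 9.34, 8.23, 8.14 and 8.39 in estrus and 9.02 to 10.27 in metestrus, with a median of 9.70. Estrus library 1 fell within the metestrus range and the other 3 below it. The Vegfa difference was -1.23 ± 0.27 (adjusted p = 0.083, limma), with -1.24 in batch 2 and -1.25 in batch 3.

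The further genes of this lower group were Frat2, an activator of Wnt signalling, at -1.32 ± 0.30, and Slc4a2, an anion exchanger, at -0.89 ± 0.20. Slc4a2 read 7.98 to 8.62 in estrus and 8.97 to 9.69 in metestrus. Nupr1, a stress-induced chromatin protein, differed by -1.22 ± 0.30, unequally between batches, at -0.72 in batch 2 and -2.41 in batch 3. Zfc3h1, a subunit of the nuclear complex that targets polyadenylated RNA for decay, differed by -1.10 ± 0.27 and Zftraf1 by -0.81 ± 0.20. Between estrus and proestrus 194 genes (0.94%) passed the threshold, and that comparison shares the estrus libraries. Tub, the gene of the tubby protein, differed by -0.99 ± 0.23 from metestrus (adjusted p = 0.0951) and by -1.04 ± 0.23 from proestrus (adjusted p = 0.0291) (both limma). Adjusted p for these genes in the comparison with metestrus ran from 0.0858 for Frat2 to 0.117 for Zftraf1.

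The abundant genes on the higher side had adjusted p of 0.0785 to 0.163 in limma. Scai, a suppressor of the actin-regulated MRTF transcription factors, read 9.83, 9.17, 10.15 and 8.94 in estrus and 7.85 to 8.62 in metestrus, with a median of 8.35. The groups did not overlap, and the difference was 1.18 ± 0.26, with 1.5 in batch 2 and 0.39 in batch 3. Both Prkab1 and Prkaa2 encode subunits of AMPK, the kinase that senses low cellular energy. Prkab1 read 9.56, 9.64, 9.12 and 9.01 in estrus and 7.36 to 8.57 in metestrus. Its difference was 1.29 ± 0.32, with 1.68 in batch 2 and 0.44 in batch 3. Prkaa2 read 10.01, 9.68, 10.75 and 9.25 in estrus and 8.20 to 9.23 in metestrus, a difference of 1.12 ± 0.30. For Prkaa2 the difference was 1.58 in batch 2 and 0.02 in batch 3, and in proestrus it read 10.08, 10.25 and 9.86, within the estrus range. Hspa14, a ribosome-associated chaperone of the heat shock 70 family, differed by 0.86 ± 0.23 from metestrus and by 0.90 ± 0.23 from proestrus, with adjusted p of 0.144 and 0.0605. Thumpd3, a tRNA methyltransferase, differed by 0.79 ± 0.20. Etfdh, which passes electrons from fatty acid oxidation to ubiquinone, differed by 0.97 ± 0.26, and Diras1, a small GTPase, by 0.95 ± 0.27. In batches 2 and 3 the differences were 0.87 and 0.57 for Thumpd3, 1.18 and 0.40 for Etfdh and 1.27 and 0.32 for Diras1. Diras1 read 10.56, 10.60 and 9.39 in proestrus, and estrus differed from it by -0.07 ± 0.27. Aldh3b1, an aldehyde dehydrogenase, differed by 0.78 ± 0.20. Among noncoding transcripts, 2810403D21Rik differed by 1.05 ± 0.27 and Chn1os1, an antisense transcript of Chn1 whose reads may not be told from those of its partner, by 1.26 ± 0.30. In batches 2 and 3 the differences were 1.03 and 1.02 for 2810403D21Rik and 1.63 and 0.28 for Chn1os1.

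**Figure D2:**
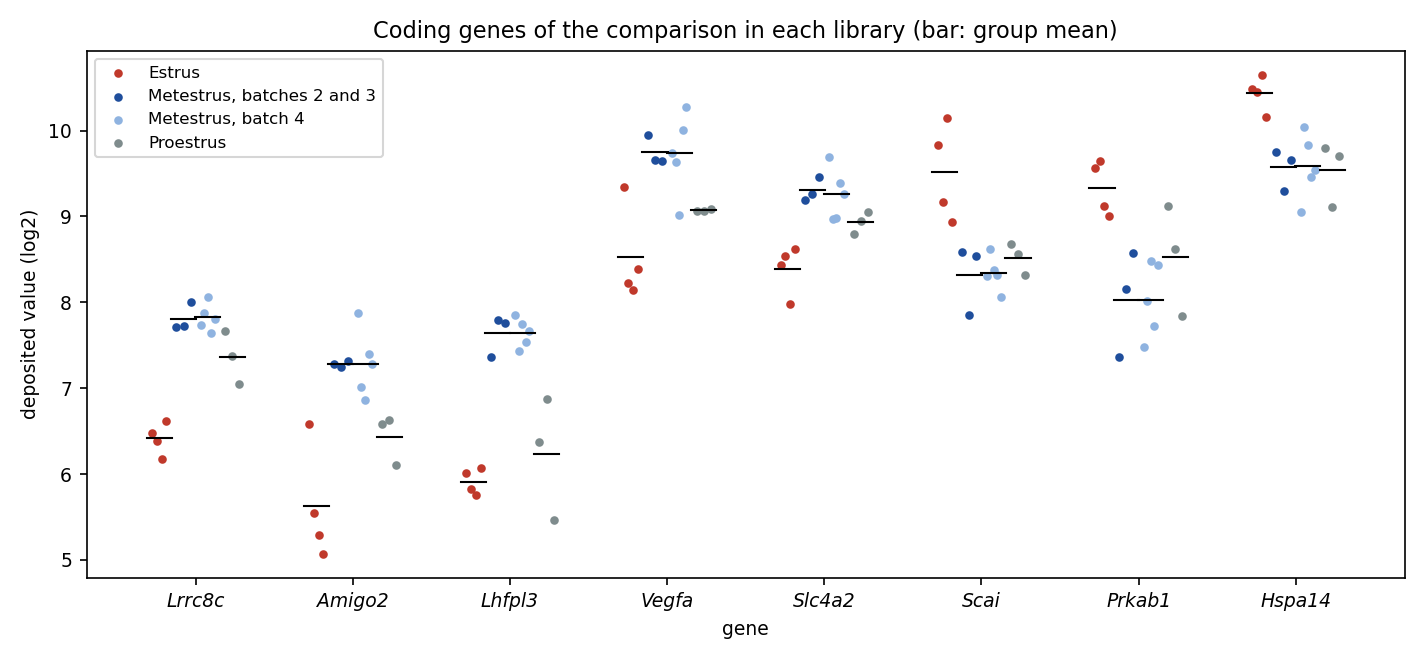
Deposited log2 values (vertical axis) of 8 coding genes in each estrus (red), metestrus (dark blue in batches 2 and 3, light blue in batch 4) and proestrus (grey) library, with group means as bars. Lrrc8c, Amigo2, Lhfpl3 and Slc4a2 lie lower and Scai, Prkab1 and Hspa14 higher in each of the 4 estrus libraries than in the 8 metestrus libraries. For Vegfa estrus library 1, at 9.34, lies among the metestrus values.

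RNAs known to stay in the nucleus were mostly lower in estrus, and by more than the typical coding gene. Of 13 measured, 11 had negative differences, with a median of -2.09 against -0.03 over the 10723 abundant coding genes. None passed the threshold in limma, while 8 were lower and 1 higher at an unadjusted p of 0.05. Of all tested genes 7.18% were lower and 4.14% higher at that p. In batches 2 and 3, 9 of the 13 were lower in each estrus library than in any metestrus library, against 5.12% of all tested genes. The mean of the list was 7.57, 7.19, 6.55 and 8.74 in the estrus libraries, 9.04, 9.06 and 9.55 in the metestrus libraries of batches 2 and 3, and 8.90 to 9.66 in those of batch 4. The 4 estrus libraries thus lay below the 8 metestrus ones, estrus library 4, the one of batch 3, nearest to them. Estrus library 4 also had the fewest values below 0 of its group. The list had been chosen with earlier results of these data known, so its direction is no independent evidence.

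Malat1, a component of nuclear speckles, read 12.94, 11.66, 11.48 and 13.62 in estrus and 13.77 to 15.55 in metestrus, with a median of 14.47. The groups did not overlap, although estrus library 4 came close to the lowest metestrus library. The Malat1 difference was -2.09 ± 0.62 (4.27-fold, adjusted p = 0.223, limma), with -2.45 in batch 2 and -1.37 in batch 3. Kcnq1ot1, the imprinted RNA that silences genes around Kcnq1, read 5.02, 4.63, 2.66 and 6.92 in estrus and 7.94 to 9.72 in metestrus. Its difference was -3.75 ± 0.78 (13.4-fold, adjusted p = 0.0686, limma), with -4.67 in batch 2 and -1.52 in batch 3. It is antisense to Kcnq1, and no source used here states the strand setting of the counting, so reads of the pair may not be told apart.

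Xist, the RNA that coats the inactive X chromosome in female cells, read 6.20, 4.51, 5.39 and 7.55 in estrus and 7.77 to 9.82 in metestrus, without overlap. All these libraries are labelled female. The Xist difference was -2.83 ± 0.82 (adjusted p = 0.188, limma). Meg3 and Mirg come from the imprinted Dlk1-Dio3 cluster and differed by -2.63 ± 0.68 and -2.62 ± 0.89. Rian, from the same cluster, differed by -0.11 ± 0.38, with 8.53 to 9.20 in estrus and 8.63 to 9.43 in metestrus. Miat, a nuclear RNA of neurons, differed by -3.47 ± 1.04. Its estrus libraries spread from 0.39 to 7.30.

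The host transcripts Snhg11 and Snhg14 differed by -2.16 ± 0.59 and -1.24 ± 0.34, both without overlap between the stages. Snhg11 is typed as protein coding in GENCODE. Smaller differences were seen for Pvt1, at -0.99 ± 0.51, and Neat1, the scaffold of paraspeckles, at -0.85 ± 0.57, each with estrus library 3 far below the other 3. Against the trend stood Peg13, at 0.15 ± 0.21, and Airn, at 1.71 ± 0.79 (adjusted p = 0.422, limma). Airn is antisense to Igf2r and scarce, with 3.78 to 6.88 in estrus and 1.76 to 5.64 in metestrus.

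Other noncoding RNAs and neuronal markers had smaller differences. The 12 cytoplasmic long noncoding RNAs and small nucleolar RNA hosts had a median of -0.28, with 9 negative and none past the threshold. Norad, an abundant cytoplasmic RNA that binds Pumilio proteins, differed by 0.45 ± 0.24, Gas5 by -0.37 ± 0.24 and Snhg12 by -0.61 ± 0.28. The 13 mitochondrially encoded transcripts had a median of -0.28, with 11 negative and none at an unadjusted p of 0.05, and leaving out single libraries moved this median between -0.58 and -0.02. The 18 neuron markers had a median of 0.06, and their list mean was 11.55 to 11.68 in estrus and 11.45 to 11.75 in metestrus. Proestrus list means of the nuclear-retained RNAs were 8.81, 7.58 and 9.47. The median difference of these RNAs was -0.94 between estrus and proestrus, with 10 of 13 negative.

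**Figure D3:**
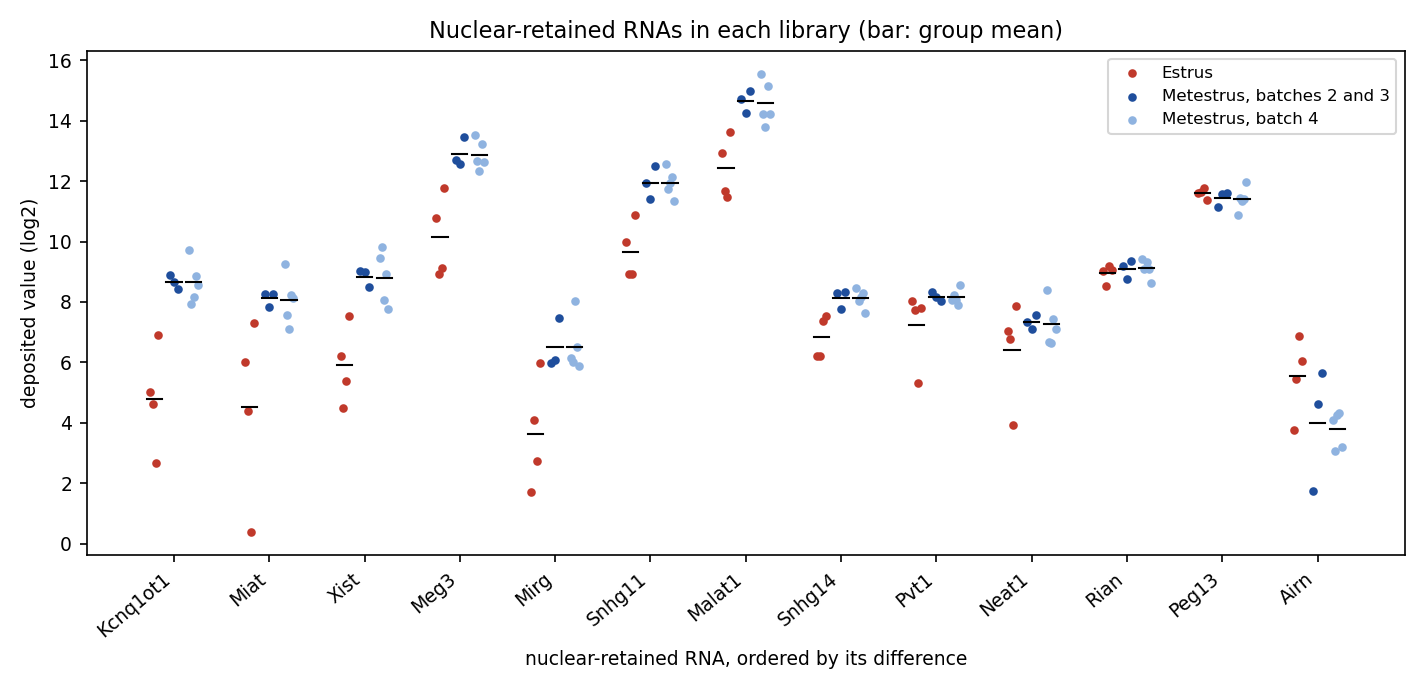
Deposited log2 values (vertical axis) of the 13 nuclear-retained RNAs in the estrus libraries, the metestrus libraries of batches 2 and 3 and those of batch 4 (red, dark blue and light blue points, with group means as bars). For Kcnq1ot1, Xist, Meg3, Snhg11, Malat1 and Snhg14 the 4 estrus points lie below the 8 metestrus points.

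Among annotated gene types the largest difference lay in loci of type TEC. GENCODE gave a type to 18451 of the tested genes (89.4%). The 14890 protein-coding genes had a median difference of -0.04, the 887 lincRNAs of -0.22, the 866 antisense genes of -0.13 and the 722 processed pseudogenes of -0.30. The 463 genes of type TEC, loci set aside in the annotation for experimental checking, had a median of -0.98. Of these, 337 (72.8%) were negative, 111 (24%) were lower and 6 (1.3%) higher at an unadjusted p of 0.05, and 4 passed the threshold, all lower. At that unadjusted p, 7.18% of all tested genes were lower and 4.14% higher, and 8.7% and 4.49% of scarce genes (limma). Lower without overlap in batches 2 and 3 were 15.1% of the TEC genes, against 5.12% of all tested genes and 5.83% of scarce ones. The median value of this type was 1.42, 0.73, 1.40 and 2.53 in the estrus libraries, 3.28, 3.46 and 3.39 in the metestrus libraries of batches 2 and 3, and 2.91 to 3.62 in batch 4. Estrus thus lay below metestrus in each library, again with estrus library 4 nearest. In proestrus the median was 2.40, 1.69 and 3.54. The type medians of coding genes overlapped, at 8.62 to 9.04 in estrus and 8.68 to 8.94 in metestrus. Nearly all TEC genes were scarce, 451 of 463, and in the 12 abundant ones the median difference was -0.17.

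**Figure D4:**
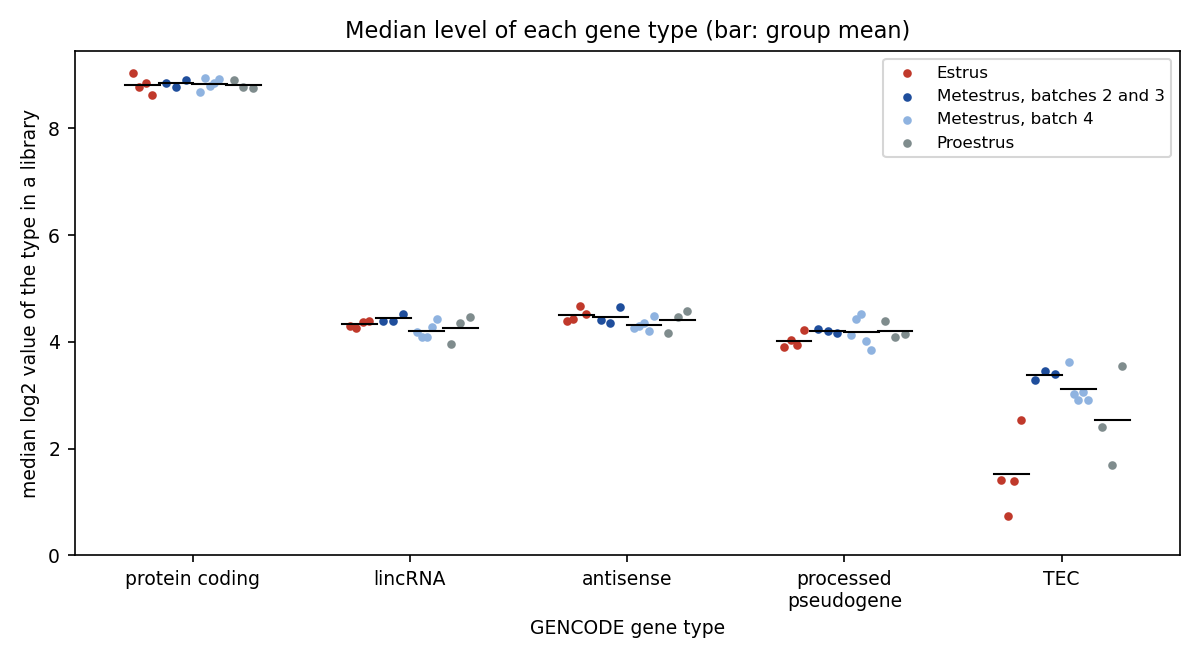
Median log2 value of 5 GENCODE gene types (vertical axis) in each library, with group means as bars, for estrus (red), metestrus (dark blue in batches 2 and 3, light blue in batch 4) and proestrus (grey). The TEC medians of the 4 estrus libraries, 0.73 to 2.53, lie below the 8 metestrus ones, 2.91 to 3.62, while the medians of coding genes overlap.

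In abundant coding genes the median difference shifted slightly with transcript length and base content. Across 5 equal groups from the shortest to the longest transcripts the median difference was -0.05, 0.02, -0.01, -0.03 and -0.10. Across 5 groups from the lowest to the highest GC content it was 0, -0.01, -0.04, -0.04 and -0.09. The share of negative differences was 57.5, 46.6, 51.9, 54.5 and 61.9% across the length groups. Across the GC groups it was 49.4, 50.7, 55, 55 and 62.2%.

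Among scarce genes, 4 rose in estrus. Slfn2, a member of the Schlafen family that keeps immune cells quiescent, read 7.36, 6.45, 7.35 and 5.83 in estrus and 2.12 to 4.23 in metestrus, with a median of 2.87. It rose by 3.87 ± 0.64 (adjusted p = 0.0244 in limma). In proestrus Slfn2 read 9.20, 7.80 and 8.81, and estrus differed from it by -1.83 ± 0.64 (adjusted p = 0.167). Ppp1r3b, a subunit that directs protein phosphatase 1 to glycogen, read 7.48, 6.42, 6.57 and 6.41 in estrus and 1.25 to 3.61 in metestrus, and rose by 4.50 ± 0.77 (adjusted p = 0.031, limma). The lincRNA 4930540M05Rik read 5.25, 6.43, 6.84 and 5.15 in estrus and 0.36 to 2.25 in metestrus, and rose by 4.72 ± 0.74 (adjusted p = 0.017, limma). Proestrus was at its estrus level, at 4.84, 7.44 and 5.22, with a difference of 0.00 ± 0.74. The olfactory receptor gene Or2bd2 read 6.24, 7.45, 6.20 and 5.32 in estrus and -1.11 to 2.73 in metestrus, and rose by 5.33 ± 1.03 (adjusted p = 0.0468, limma). These 4 genes also passed when 10 was added to the values before the log. Of the 12 fits that each left out 1 library, 10 kept the call for 4930540M05Rik, 9 for Slfn2, 9 for Ppp1r3b and 2 for Or2bd2.

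Most of the 13 scarce genes that fell did so to very low values. For 12 of them, all but Amigo2, the estrus mean was below the filter's minimum of 3.32. With 10 added before the log none of the 13 passed. Amigo2, which lay well above the minimum, then differed by -1.5 (adjusted p = 0.0558, limma), close to its difference without the addition. Arl11, a small GTPase known from macrophages, read -1.09, -0.80, -0.69 and -0.84 in estrus and 2.85 to 5.95 in metestrus, and fell by 5.10 ± 0.80 (adjusted p = 0.017, limma). In proestrus Arl11 read -0.78, -0.08 and -0.65. D930048N14Rik fell by 4.72 ± 0.72 and Slc9a4, a sodium-proton exchanger, by 4.6 ± 0.87. Myh1, a myosin heavy chain of fast skeletal muscle, fell by 3.70 ± 0.70. For Slc9a4 and Myh1 proestrus was as low as estrus, at -1.72 to -1.34 and 0.07 to 0.41. Leaving out single libraries kept the call in 10 of 12 fits for Arl11 and for D930048N14Rik, in 3 for Slc9a4 and in 2 for Myh1.

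The other genes that fell were noncoding or untyped loci. They were the 4 TEC loci Gm37899, Gm43175, Gm43670 and Gm49502, the processed pseudogenes Gm15425 and Rpl10-ps6, and Gm57038 and ENSMUSG00000134819, which had no type in the annotation used. A processed pseudogene is a near copy of its parent gene, so the reads of Rpl10-ps6 could be split with Rpl10. Gm37899 fell most, by 5.95 ± 1.03, with -0.60, -2.42, -0.63 and 3.34 in estrus and 4.85 to 7.90 in metestrus. In proestrus Gm37899 read 4.28, 3.47 and 6.23, and the estrus libraries differed from it by -4.51 ± 1.03 (adjusted p = 0.035, limma). Gm43670, at 5.21, 4.49 and 6.50 in proestrus, likewise differed by -5.69 ± 0.89 (adjusted p = 0.00327). Gm43175 and Gm49502 read 0.87 or lower in proestrus and were near their estrus levels there. The TEC loci that fell thus had unlike levels in proestrus. With single libraries left out, 8 of 12 fits kept the call for Gm37899 and 7 for Gm43175. The other loci named here kept it in 1 fit (Rpl10-ps6) to 3 fits (Gm57038).

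**Figure D5:**
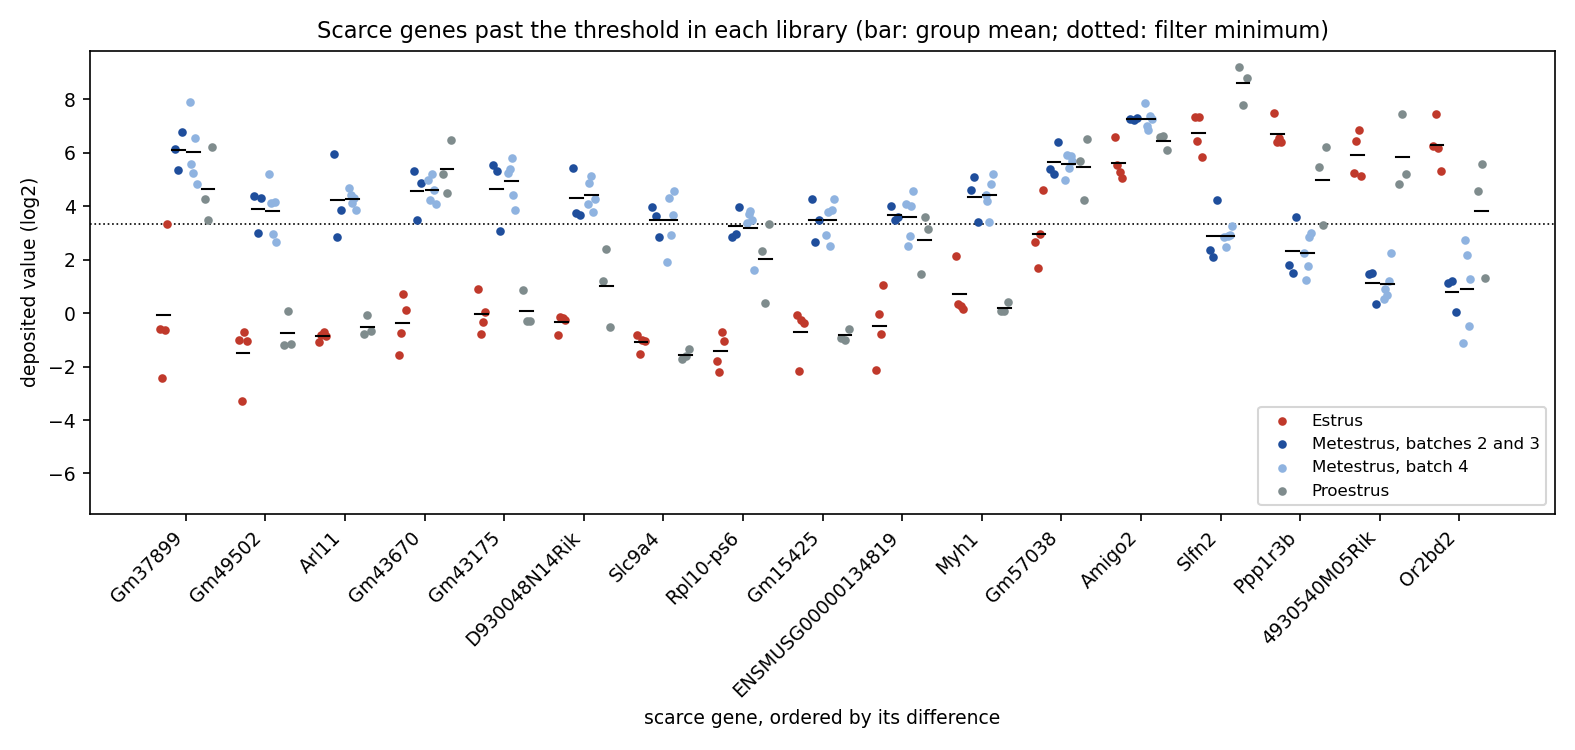
Deposited log2 values (vertical axis) of the 17 scarce genes past the threshold in each estrus (red), metestrus (dark blue in batches 2 and 3, light blue in batch 4) and proestrus (grey) library, with group means as bars, ordered by the difference. The dotted line is the filter's minimum of 3.32. The estrus means of the first 12 genes lie below it, and the last 4 genes are high in estrus and below or near it in metestrus.

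Markers of other cell types gave mixed values. The 12 oligodendrocyte markers all had positive differences, with a median of 0.38 against -0.07 over all genes, but none passed. At an unadjusted p of 0.05, 5 were higher, against 4.14% of all tested genes (limma). Mog, a myelin surface protein, read 8.93, 9.47, 8.99 and 8.44 in estrus and 7.65 to 8.43 in metestrus, a difference of 0.89 ± 0.30 (adjusted p = 0.267, limma). Cnp, a myelin enzyme, differed by 0.58 ± 0.22, and Mbp, the myelin basic protein, by 0.11 ± 0.21. The list mean was 9.5 to 10.15 in estrus and 9.27 to 9.46 in metestrus. Leaving out single libraries moved the median difference between 0.26 and 0.60, the latter without estrus library 4. Fewer cells of a type and less RNA per cell cannot be told apart in such libraries.

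Of the 14 endothelial and mural markers, 12 had negative differences, with a median of -0.77 and none past the threshold. At an unadjusted p of 0.05, 3 were lower, against 7.18% of all tested genes (limma). Only 4 of the 14 were abundant, and with abundant genes alone the median was -0.60. Their list mean was 4.24, 4.46, 4.72 and 5.33 in estrus and 5.41 to 6.30 in metestrus, so the groups did not overlap. Leaving out single libraries moved the median difference between -1.26, without metestrus library 3, and -0.54. Rgs5, a pericyte marker, differed by -0.74 ± 0.29, Cldn5, the endothelial tight junction protein, by -0.70 ± 0.43, and Tek, the receptor of angiopoietins, by -3.68 ± 1.21. Vtn, another mural marker, differed by 0.04 ± 0.25. The 13 microglia markers had a median of 0.00, the 10 oligodendrocyte precursor markers of -0.25, and the 10 fibroblast and matrix markers of 0.06. The part of other cells in the differences above was not tested.

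The receptors through which ovarian hormones act did not pass the threshold. Esr1, the nuclear estrogen receptor alpha, read 6.51, 6.38, 4.46 and 6.51 in estrus and 5.59 to 7.0 in metestrus. It differed by -0.36 ± 0.64 from metestrus (adjusted p = 0.873). The same estrus libraries lay above proestrus, at 2.74, 3.75 and 0.64, by 3.53 ± 0.64 (adjusted p = 0.00937, limma). Gper1, the membrane estrogen receptor, read 7.31, 8.18, 6.34 and 6.73 in estrus, 1.86 to 6.84 in metestrus and 4.84, 1.27 and 1.41 in proestrus. Its difference was 2.84 ± 1.07 from metestrus (adjusted p = 0.318) and 4.62 ± 1.07 from proestrus (adjusted p = 0.0375, limma). Pgr, the progesterone receptor, differed by -0.13 ± 0.23 from metestrus. Esr2, estrogen receptor beta, was scarce and spread from -0.73 to 5.85 in estrus, a difference of 1.37 ± 1.44.

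Of 14 measured genes of steroid reception and synthesis, 10 had negative differences, against 56.5% of all tested genes, and the median was -0.10. Of 9 membrane progesterone receptors, 6 were negative and 2 were lower at an unadjusted p of 0.05, against 7.18% of all tested genes (limma). Paqr9 read 7.74, 7.26, 8.27 and 8.11 in estrus and 8.29 to 8.95 in metestrus. It differed by -0.76 ± 0.26 from metestrus (adjusted p = 0.267) and by -1.13 ± 0.26 from proestrus (adjusted p = 0.0327, limma). Of 13 estrogen-responsive genes, 7 were negative, with a median of -0.13, which was 0.11 in batch 2 alone. Vegfa was the single one at an unadjusted p of 0.05, against 11.3% of all tested genes in either direction (limma).

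The functional lists of astrocytes were mostly level. Of 19 growth factors and receptors, 15 had negative differences, with a median of -0.32 and none past the threshold. At an unadjusted p of 0.05, 5 were lower, against 7.18% of all tested genes (limma). Beside Vegfa these were Bdnf, the neurotrophin, at -1.01 ± 0.29, Fgfr1 at -0.62 ± 0.23, Igf1r at -0.57 ± 0.27 and Fgfr3, a receptor typical of astrocytes, at -0.73 ± 0.33. Bdnf read 7.59, 7.84, 6.89 and 8.11 in estrus and 8.37, 8.54 and 9.04 in the metestrus libraries of the same batches, without overlap (adjusted p = 0.185, limma). Of 14 genes of potassium, water and gap junction function, 11 were negative, with a median of -0.26. Kcnk2, a mechanosensitive potassium channel, differed by -0.70 ± 0.24, Kcnj10, the main inward rectifier of astrocytes, by -0.41 ± 0.22, Aqp4, the water channel, by -0.22 ± 0.25 and Gja1, the main connexin of astrocytes, by -0.12 ± 0.29. Of 13 synapse-forming secreted factors, 11 were negative, with a median of -0.32 and none at an unadjusted p of 0.05. These counts stand against 56.5% negative over all genes. The medians of these 3 lists rested largely on batch 3, which holds estrus library 4 and metestrus library 3. Without estrus library 4 they were -0.03 for growth factors, -0.10 for potassium, water and gap junction genes and -0.11 for synapse-forming factors. Without metestrus library 3 they were -0.11, -0.05 and -0.05, and in batch 2 alone -0.07, -0.01 and -0.01.

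Glycolysis genes leaned the other way, with 16 of 18 positive and a median of 0.23, none past the threshold. The list mean was 13.35 to 13.43 in the 3 estrus libraries of batch 2 and 12.81 in the 1 of batch 3. In metestrus it was 12.99 to 13.02 in batches 2 and 3, and so between the estrus values. Pkm, pyruvate kinase, differed by 0.52 ± 0.21, Pgam1, phosphoglycerate mutase, by 0.43 ± 0.17, Pfkp, phosphofructokinase, by 0.57 ± 0.24 and Slc2a1, the glucose transporter of the barrier, by -0.41 ± 0.27. The nuclear-encoded genes of oxidative phosphorylation were even, 10 positive and 10 negative. Cholesterol synthesis had 12 of 16 negative with a median of -0.15, and glutamate and GABA handling 9 of 14 negative with a median of -0.08. Circadian clock genes had 10 of 17 positive. Ciart, a repressor of the clock, read 9.02, 10.52, 11.42 and 8.20 in estrus and 7.98 to 9.42 in metestrus, a difference of 1.38 ± 0.53 (adjusted p = 0.33, limma).

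Heat shock and unfolded protein genes had 15 of 26 positive and a median of 0.06. Asns, asparagine synthetase, differed by 0.97 ± 0.31 and Chac1, which degrades glutathione, by 1.16 ± 0.42, whereas Atf4, the factor that activates both, differed by -0.62 ± 0.26. The adjusted p of these 3 genes were 0.229, 0.306 and 0.385 in limma. Cell cycle genes were mostly scarce, and their members went in opposite directions. Mki67, a marker of dividing cells, differed by -3.83 ± 0.90 (adjusted p = 0.099) and Cdk1, the mitotic kinase, by -2.91 ± 0.89, while Plk1, another mitotic kinase, differed by 3.60 ± 1.04 (adjusted p of 0.219 and 0.192, limma). Estrus library 4 read 4.03 for Mki67 and the other 3 -1.69 to -1.07. Genes named after their values were seen were Chac1, Mki67, Cdk1, Plk1, Bdnf, Fgfr1, Igf1r, Kcnj10, Aqp4, Gja1, Pkm, Pgam1, Cnp, Mbp, Tek, Cldn5, Gas5, Snhg12, Gbp2, Lrrc8a, Lrrc8b, Lrrc8d, Gm15725 and Gm14419.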

How the data were processed

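RNA from the pulldown of tagged ribosomes was sequenced from polyadenylated RNA. The deposited values are log2 values per gene, made by the authors with STAR, Salmon and edgeR on build GRCm39, per the submitters' processing notes. No source used here states their scaling, filters, strand setting or depth, so no counting error could be attached. Genes reaching a log2 value of 3.32 in at least 3 of the 19 libraries were tested in limma 3.58.1 (R 4.3.3, trend and robust prior) with group and batch as terms, 13 residual degrees of freedom, two-sided, and Benjamini-Hochberg adjustment over all 20644 genes at 0.05. The deposited matrix carries the letters SVA, for surrogate variable analysis, in its name, and no source used here states what adjustment was made. The values had rank 11 after groups where 15 was possible, and a fit that counted the removed directions had 11 degrees of freedom. The SE values and the overlap between libraries given here are those of values with this variation already removed. Groups came from the treatment label. Gene types came from GENCODE and promoter windows from RefSeq, matched by gene identifier or symbol.

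Named genes were those past the threshold, the 10 abundant genes of smallest p in each direction whose groups did not overlap in batches 2 and 3, all nuclear-retained RNAs, the extreme abundant members of each gene list, and Esr1, Esr2, Gper1, Pgr, Gfap, Aldh1l1 and Rpl10a. A further gene of this rule is not reported here. The members and the 39 gene lists were chosen with earlier results of these data known. The tested genes lacked 26 symbols of these lists. The fit was tested on simulated data. Their noise was independent between libraries, with no batch effect and no removed directions. That test therefore cannot give the error rate in the deposited values. Alternatives were the filter, the value added before the log, centring, the batch term, the libraries in the fit, the prior, the abundance line and leaving out each library.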

Additional observations from a re-analysis of the deposited data

Results flagged for a closer look

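Of 192 series of values, those of 57 genes and 39 list means in estrus and in metestrus, 10 had 1 library far from the others of its group, about the 5% that chance gives.

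Estrus library 1 stood apart for 3 genes. It read 7.48 for Ppp1r3b against 6.41 to 6.57 in the other estrus libraries, -0.80 for D930048N14Rik against -0.25 to -0.14, and 2.14 for Myh1 against 0.14 to 0.34. Estrus library 2 read -2.18 for Gm15425 against -0.37 to -0.05, and -3.28 for Gm49502 against -1.03 to -0.69. Estrus library 3 read 5.32 for Pvt1 against 7.73 to 8.03, and 4.46 for Esr1 against 6.38 to 6.51. Estrus library 4, the only one of batch 3, had a glycolysis list mean of 12.81 against 13.35 to 13.43 in the estrus libraries of batch 2. In metestrus, library 6 read 9.77 for Zftraf1 against 10.14 to 10.42, and library 8 had a mean of fibroblast and matrix markers of 7.30 against 6.22 to 6.69.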

How the results depend on the processing

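Against 18 genes in all, 0.0088% of the abundant genes and 17 scarce genes, the fit without the batch term gave 899 in all, 2.97% of the abundant genes and 561 scarce ones. No gene passed with the removed directions counted, in batches 2 and 3 alone (1338 at an unadjusted p of 0.05) or in batch 2 alone (1923). Adjusting over the abundant genes alone left 0. Without the filter 27 passed, 0.0176% of the abundant genes among them, and with 10 added before the log 14. The share of abundant genes was 0.0176% with libraries centred on their medians, 0.0352% with the estrus and metestrus libraries alone, 0.0155% with the line at 6 and 0 with the line at 8. Leaving out single libraries gave 0 to 56 in all, 0 to 0.0792% of the abundant genes and 0 to 48 scarce ones. The cause of these shifts was not tested.

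The median of the nuclear-retained RNAs stayed negative throughout, at -2.43 to -1.78 with single libraries left out and -2.40 to -1.83 under the other alternatives. Dropping 1 library at a time also turned the sign of some list medians, which spanned -0.18 to 0.05 for estrogen-responsive genes, -0.23 to 0.06 for cholesterol synthesis, -0.17 to 0.08 for glutamate and GABA handling, -0.22 to 0.07 for astrocyte markers, -0.09 to 0.51 for fibroblast and matrix markers, -0.09 to 0.26 for microglia markers and -0.10 to 0.25 for heat shock genes. The sign also turned for motile cilium (-0.42 to 0.38), pan-reactive (-0.24 to 0.26), A2-type (-0.16 to 0.40) and glucocorticoid-responsive genes (-0.10 to 0.10). It did so for choroid plexus and ependymal markers (-0.08 to 0.13), calcium and neuromodulator receptors (-0.29 to 0.03) and tRNA and translation factors (-0.12 to 0.07). Antioxidant genes (-0.06 to 0.08), process and cytoskeleton genes (-0.02 to 0.23) and oxidative phosphorylation (-0.02 to 0.15) turned likewise. The other lists kept their sign or reached 0. Among them medians moved from 0.15 to 0.36 for glycolysis, 0.08 to 0.36 for A1-type genes, -0.40 to 0 for oligodendrocyte precursor markers, -0.38 to -0.17 for cytoplasmic and host RNAs and -0.17 to -0.01 for steroid genes. In batch 2 alone the sign turned for Esr2 (-0.03), Csf1r (0.11), Sphk1 (0.04) and Rsph1 (-0.03). List medians turned positive there for estrogen-responsive genes (0.11), astrocyte markers (0.11) and glutamate and GABA handling (0.09). Those of cholesterol synthesis (0.05) and glucocorticoid-responsive genes (0.02) did too. With single libraries left out, differences that changed sign or reached 0 ranged from -0.13 to 0.14 for Aldh1l1, -0.43 to 0.05 for Pgr, -0.94 to 0.19 for Esr1, -0.25 to 0 for Rian, -0.05 to 0.33 for Peg13, -0.18 to 0.17 for Vtn and -0.39 to 0.39 for Foxj1. The ranges were -0.48 to 0.20 for Cfap126, -0.33 to 0.50 for Dcn, -0.12 to 0.72 for Erbb4, -0.04 to 0.40 for Rsph1, -0.37 to 0.21 for Csf1r, -0.01 to 0.28 for Nlgn3, -0.01 to 0.23 for Hsd17b4 and -0.03 to 0.65 for Tm4sf1. No paired analysis was possible because the labels give no replicate numbers that groups share. Depth is unknown, so how far it limits the scarce genes could not be computed.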
